A study of Mus musculus with 9 samples.

Results

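The hypoxia response and Vegf genes described here are 10 named genes: Hif1a, Epas1, Hif3a and Arnt, which encode transcription factor subunits, Egln1, Egln3 and Vhl, which encode the oxygen-sensing machinery, and Vegfa, Vegfb and Ldha, which encode growth factors and a glycolytic enzyme. They were chosen by name and not by a cut on their values, though with earlier results of these data known. All 10 were found among 33844 transcription start site (TSS) regions. ATAC-seq, an assay of open chromatin based on a transposase that cuts accessible DNA and tags it, was run on heart muscle cells of CD1 mice. The stages were postnatal day 1 (P1), day 14 (P14) and day 56 (P56), with 3 libraries each, and the labels name no genotype, treatment, sex or batch. Each P1 library pooled 12 hearts and each P14 or P56 library 6 to 7 hearts, and nuclei were sorted on Pcm1, a nuclear antigen of cardiomyocytes. The protocol text mentions surgery but leaves unstated whether it applied to these hearts.

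In oxygenated cells, the prolyl hydroxylases made from Egln1 and Egln3 mark the HIF alpha subunits, and the Vhl ubiquitin ligase then has them destroyed. When oxygen is short the alpha subunits persist, pair with Arnt and bind the core sequences ACGTG or GCGTG in hypoxia response elements, which raises transcription of targets such as Vegfa and Ldha. Heart muscle moves after birth from a low-oxygen, glycolytic state to one that burns fatty acids, and cardiomyocyte Vegfa is a major signal for the coronary vessels.

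The sequences just upstream of the listed starts show how unequally these core sequences are spread over the genes. The 250 bases before the start were available from RefSeq (GRCm38.p6) for 11 starts of 9 of the genes. Both core sequences were searched on both strands, and matches on opposite strands may overlap. Of the 11 sequences, 5 held ACGTG and 9 held at least one of the cores, where 16.6% and 38.6% of 32851 RefSeq promoters of the same length did. Vegfa and Ldha gave 2 sequences each. Both cores contain CG, which occurred 7 to 51 times in the member sequences against a median of 6.0 over all promoters. No share among promoters of like composition was taken, so these counts do not show an excess of the cores beyond composition. A match describes letters only and was not tested as a binding site. The 4 sequences that follow, 5′ to 3′ on the strand of the gene, are the upstream sequence of Vegfa, whose TSS region had the smallest p of the 10 at P56 against P1, that of Ldha, which held the most matches, and those of Hif1a and Egln1, a factor and the sensor that marks it. Capitals mark the cores.
Vegfa (chr17:46032378-46032627, minus strand): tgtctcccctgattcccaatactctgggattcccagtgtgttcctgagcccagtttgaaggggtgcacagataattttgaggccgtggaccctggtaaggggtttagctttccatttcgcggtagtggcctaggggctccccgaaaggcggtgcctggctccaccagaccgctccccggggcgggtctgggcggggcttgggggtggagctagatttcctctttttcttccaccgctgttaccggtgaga
Ldha (chr7:46845554-46845803, plus strand): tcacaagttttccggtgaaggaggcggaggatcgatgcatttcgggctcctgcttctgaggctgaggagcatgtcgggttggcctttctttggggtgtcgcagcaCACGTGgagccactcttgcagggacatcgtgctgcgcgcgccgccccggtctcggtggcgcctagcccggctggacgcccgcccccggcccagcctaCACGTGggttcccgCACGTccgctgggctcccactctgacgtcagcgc
Hif1a (chr12:73907617-73907866, plus strand): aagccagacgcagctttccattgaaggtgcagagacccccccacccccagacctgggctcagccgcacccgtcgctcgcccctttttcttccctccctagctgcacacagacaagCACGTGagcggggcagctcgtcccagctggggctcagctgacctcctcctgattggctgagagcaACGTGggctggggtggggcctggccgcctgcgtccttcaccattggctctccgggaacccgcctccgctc
Egln1 (chr8:124949255-124949504, minus strand): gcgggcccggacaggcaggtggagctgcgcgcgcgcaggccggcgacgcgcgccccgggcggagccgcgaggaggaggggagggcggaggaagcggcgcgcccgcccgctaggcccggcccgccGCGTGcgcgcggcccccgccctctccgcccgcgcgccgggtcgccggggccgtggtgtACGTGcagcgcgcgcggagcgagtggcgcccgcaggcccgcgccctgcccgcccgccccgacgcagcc

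The Ldha sequence held 5 ACGTG matches, of which 4 lay as overlapping pairs on opposite strands at -145 to -140 and at -48 to -43 from the start. Hif1a held 3 ACGTG matches, 2 of them overlapping. Egln1 had 1 ACGTG at -68 and 1 GCGTG at -126, in a sequence of 86.0% G and C. Neither core was found in the window before this Vegfa start, and the window before the internal Vegfa start at 46025163 held 1 of each. The windows of Arnt, Hif3a, Vegfb and the second listed Ldha start held GCGTG without ACGTG, Egln3 held 1 ACGTG at -229, and Vhl held neither. G and C made up 50.8% (Egln3) to 86.0% of the member windows, against a median of 52.4% over all promoters. The Epas1 sequence was not analysed here.

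Library totals over the TSS regions ran between 1414979 and 2167369 counts at P1, between 481217 and 893032 at P14 and between 874639 and 1468352 at P56, so P14 was the shallowest stage. Levels are given as CPM, each count divided by its library's total after TMM correction, and the genes' raw counts averaged 34.0 to 166.9 over the 9 libraries, with a lowest single count of 9. Signal over background, taken as the percentage of counts held by the 10% of regions with the highest mean CPM, was 31.9% to 33.0% in P1 libraries, 34.1% to 35.3% in P14 libraries and 35.5% to 36.8% in P56 libraries (exact permutation p = 0.00357, the smallest possible over 1680 assignments). Those shares are of the TSS regions. By peaks, P1 libraries ran from 24.08% up to 26.05%, P14 libraries from 25.45% up to 26.92%, and P56 libraries from 26.65% up to 29.8%. Neighbouring stages thus overlapped in the peak shares (exact permutation p = 0.0571). By TSS regions and by peaks alike, P56 replicate 2 had the highest share and P1 replicate 1 the lowest. Over the TSS regions, though, P1 replicate 3 (31.98%) was nearly level with P1 replicate 1 (31.93%). For the genes described here, P56 replicate 2 was the highest library for 9 of the 10, and P1 replicate 1 the lowest for 6. Their summed level was 468 CPM in P1 replicate 1 but 657 CPM, the highest at P1, in P1 replicate 3. The part of signal over background in the results that follow was not tested. Values of fits without P1 replicate 1 and P56 replicate 2 and with trend-removing offsets are given. Leaving out those libraries cannot show that part, as the TSS shares left were still apart. They were 33.04% and 31.98% at P1 and 35.54% and 35.72% at P56.

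Setting P56 against P1 compares the adult with the newborn heart muscle cell. The TSS regions of Vegfa and Epas1 rose, by 1.76-fold and 2.11-fold, and none of the 10 fell. That makes 2 of 10 genes past an adjusted p of 0.05 (edgeR quasi-likelihood test, Benjamini-Hochberg), where 2.53% of all 33747 TSS regions tested passed (1.72% of all regions higher at P56). Of 10327 regions with a mean count of at least 34.0, the lowest of the genes, 5.17% passed, nearly all higher. Log2 changes at P56 were above 0 for 9 of the 10 genes (median 0.44), against 49.3% of all regions (median -0.01) and 76.7% of the well-covered ones (median 0.25). Without P56 replicate 2 it was 7 of the 10 (median 0.21), and without both that library and P1 replicate 1 it was 6 (median 0.10). With trend-removing loess offsets it was 8 (median 0.21). With all libraries, at an unadjusted p below 0.05 the count was 5 of 10, against 21.6% of all regions. Shares for unadjusted p and for no overlap were taken over all regions or all peaks only, here and below.

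Vegfa (ENSMUSG00000023951, chromosome 17, 46016993 to 46032377), the main angiogenic growth factor, had 136, 265 and 181 CPM at P56 and 90.4, 112 and 131 CPM at P1. Every P56 library lay above every P1 library, the lowest P56 and the highest P1 value being close to each other. The means were 194 ± 65.6 CPM at P56 and 111 ± 20.2 CPM at P1 (SD, n = 3 each), a log2 change of 0.81 ± 0.18 (SE, edgeR adjusted p = 0.0155). At P14 the 3 libraries had 111, 137 and 115 CPM, all inside or just above the P1 range. Vegfa was also the only one of the 10 to pass the edgeR test over all 3 stages at once (adjusted p = 0.0338), which 0.699% of all regions passed. At an unadjusted p below 0.05 of that test there were 5 of the 10, against 17.8% of all regions.

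Epas1 (ENSMUSG00000024140, chromosome 17, 86753864 to 86833410) encodes HIF-2α, the alpha subunit best known from endothelium and also present in heart muscle. It had 54.6, 98.6 and 52.4 CPM at P56 and 21.3, 37.7 and 41.0 CPM at P1. All 3 P56 libraries lay above the P1 libraries, and also above the 44.4, 33.8 and 43.0 CPM at P14. The mean was 68.5 ± 26.0 CPM at P56 and 33.3 ± 10.5 CPM at P1 (SD, n = 3 each), a log2 change of 1.07 ± 0.26 (SE, edgeR adjusted p = 0.0242). Over all 3 stages at once the edgeR adjusted p was 0.0614.

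Both calls were lost when P56 replicate 2, P1 replicate 1 or P1 replicate 2 was left out. With all libraries kept, both were also lost with loess offsets and at a mean count of at least 20. The log2 changes in the main fit were 0.81 for Vegfa and 1.07 for Epas1. Without P56 replicate 2 the log2 change of P56 over P1 was 0.51 for Vegfa (edgeR adjusted p = 0.111) and 0.71 for Epas1 (0.171). Without P1 replicate 1 it was 0.66 for Vegfa (edgeR adjusted p = 0.0752) and 0.80 for Epas1 (0.102), and without P1 replicate 2 it was 0.81 (0.0660) and 1.16 (0.0646). With P1 replicate 1 and P56 replicate 2 both left out, Vegfa kept 0.35 (edgeR adjusted p = 0.208) and Epas1 0.43 (0.322), and loess offsets, fitted per library against region abundance, gave 0.50 (0.152) and 0.87 (0.0740). The direction was the same in all 19 alternatives tried, as it also was for Egln3, Vhl, Vegfb, Ldha and, below 0, Hif3a. The call was lost in 7 of them for Vegfa and in 7 for Epas1.

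**Figure D1:**
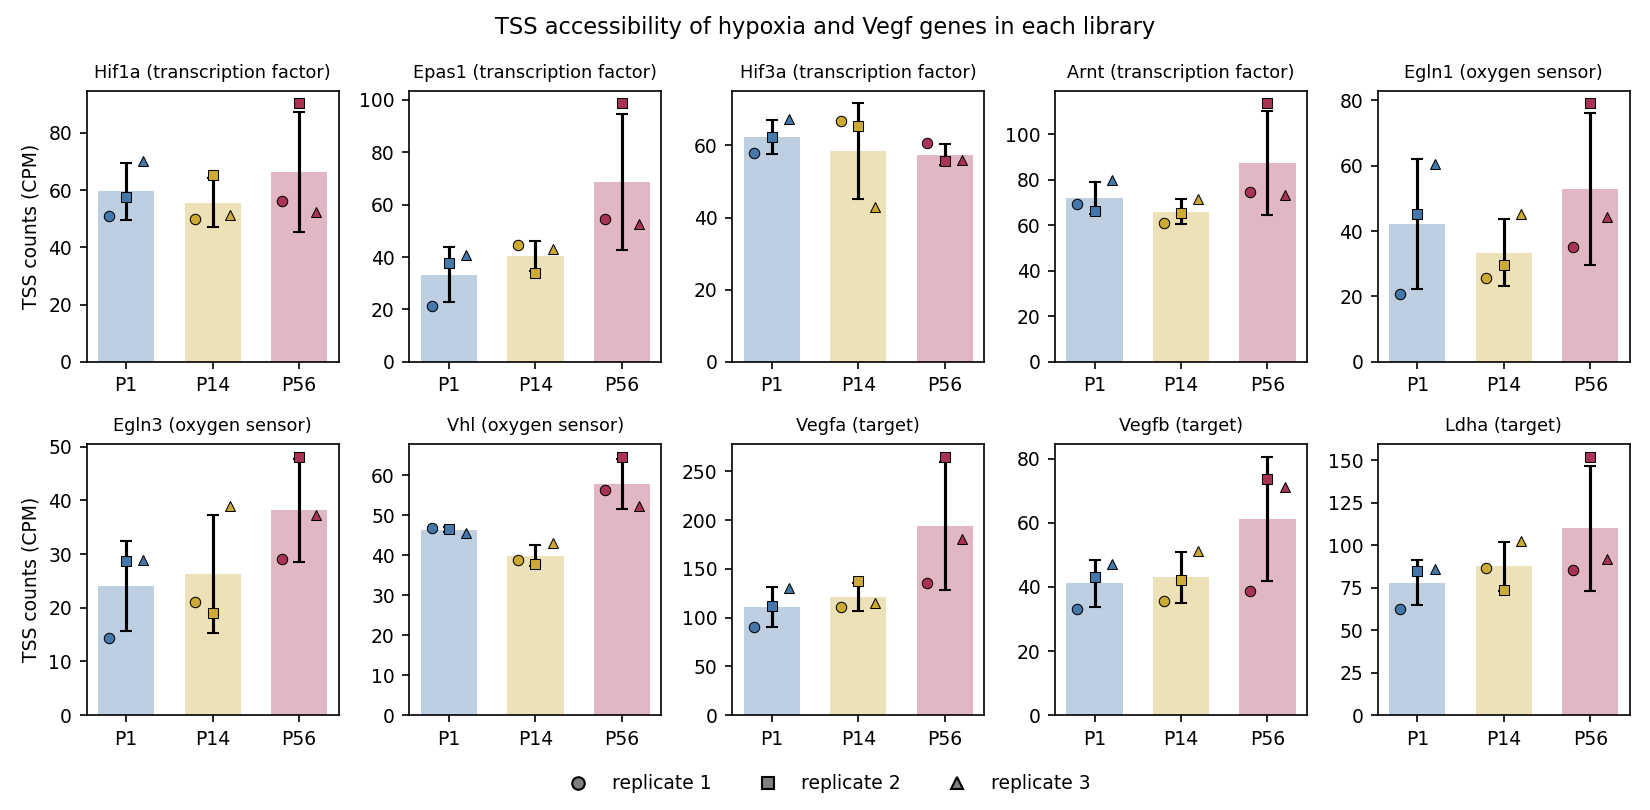
TSS accessibility of the 10 genes in each library, in CPM (vertical axes, each from 0) at P1, P14 and P56 (horizontal axes); bars are means, error bars are SD over 3 libraries, and the point shape gives the replicate number. Vegfa, Epas1, Egln3 and Vhl have all 3 P56 points above the P1 points, and P56 replicate 2 is the highest point for every gene except Hif3a.

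The other transcription factor genes did not pass. Hif1a (chromosome 12, 73901324 to 73947554), the alpha subunit of the acute hypoxia response, had 56.4, 90.3 and 52.4 CPM at P56 and 50.8, 57.6 and 70.4 CPM at P1. The stages overlapped, with 1 high P56 library, and the log2 change was 0.18 ± 0.21 (SE, edgeR adjusted p = 0.656). It changed sign without P56 replicate 2 (-0.12), with P1 replicate 1 left out as well (-0.25), and with loess offsets (-0.050). Arnt (chromosome 3, 95434367 to 95497240), the shared partner of the alpha subunits, had 74.9, 114 and 73.4 CPM at P56 and 69.5, 66.5 and 79.8 CPM at P1, which overlapped (log2 change 0.29 ± 0.19, edgeR adjusted p = 0.369).

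Hif3a (chromosome 7, 17030993 to 17062427), several isoforms of which dampen the response, was the exception. It was the only gene of the 10 with a log2 change below 0 at P56 against P1 (-0.12 ± 0.20, edgeR adjusted p = 0.757), and P56 replicate 2 ranked 8 of 9 libraries for it. Its libraries had 60.8, 55.7 and 55.9 CPM at P56, against 57.8, 62.4 and 67.2 CPM at P1. Across the 9 libraries the 36 pairs of the other genes had Pearson correlations of log2 CPM from 0.44 to 0.93 (median 0.74), whereas the 9 pairs that include Hif3a ran from -0.49 to 0.18 (median -0.21). These describe 9 libraries that share depth and signal over background, and no test was made of them.

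Among the oxygen sensors, Egln3 (chromosome 12, 54178981 to 54203874), a prolyl hydroxylase that HIF itself induces, had 29.1, 48.2 and 37.3 CPM at P56 and 14.3, 28.8 and 28.9 CPM at P1. The P56 libraries lay just above the P1 libraries, with a gap far smaller than the spread within either stage (log2 change 0.70 ± 0.28, edgeR adjusted p = 0.149). Egln1 (chromosome 8, 124908587 to 124949254), the main hydroxylase of normal oxygen levels, had 35.2, 79.0 and 44.3 CPM at P56 and 20.9, 45.2 and 60.4 CPM at P1. Its replicates spread more widely than its stages, with a log2 change of 0.36 ± 0.30 (SE, edgeR adjusted p = 0.494) that became -0.45 without P1 replicate 1 and P56 replicate 2.

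Vhl (chromosome 6, 113623994 to 113631634), the substrate-binding part of the ubiquitin ligase, had 56.4, 64.7 and 52.4 CPM at P56 and 46.9, 46.6 and 45.7 CPM at P1, the P1 libraries lying close together. Its 3 P56 libraries all lay above both younger stages, and its 3 P14 libraries (38.9, 38.0 and 43.0 CPM) all lay below P1. The log2 change of P56 over P1 was 0.32 ± 0.21 (SE, edgeR adjusted p = 0.364). In all, 4 of the 10 genes (Epas1, Egln3, Vhl and Vegfa) were higher at P56 than at P1 with no overlap, where 10.9% of all regions were. The share among well-covered regions, which more often had changes above 0, was not taken.

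Vegfb and Ldha had intermediate changes. Vegfb (chromosome 19, 6982472 to 6987651), a Vegf ligand linked to fatty acid use in the heart, had 38.8, 73.7 and 71.1 CPM at P56 and 33.0, 43.2 and 47.3 CPM at P1. P56 replicate 1 lay inside the P1 range and the other 2 P56 libraries lay above it (log2 change 0.58 ± 0.24, edgeR adjusted p = 0.160). The annotated span of Dnajc4 lies 260 bp from that of Vegfb, and its own TSS region had a log2 change of 0.71 ± 0.26 (SE, edgeR adjusted p = 0.109). Counts carry no strand.

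Ldha (chromosome 7, 46842274 to 46855627), which turns pyruvate into lactate, had 85.5, 152 and 92.0 CPM at P56 and 62.6, 85.0 and 86.1 CPM at P1. The lowest P56 library lay within the P1 range, and the log2 change was 0.52 ± 0.20 (SE, edgeR adjusted p = 0.128). Ldha and Vhl have pseudogene copies listed as separate regions, and how alike their sequences are was not measured. How the authors' counting shared reads among them is not given in the sources used here. Without P56 replicate 1, the lowest of its stage for Vegfa, Vegfb and Ldha, Vegfb (0.82) and Ldha (0.67) also passed the edgeR test, which made 4 of 10 called.

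**Figure D2:**
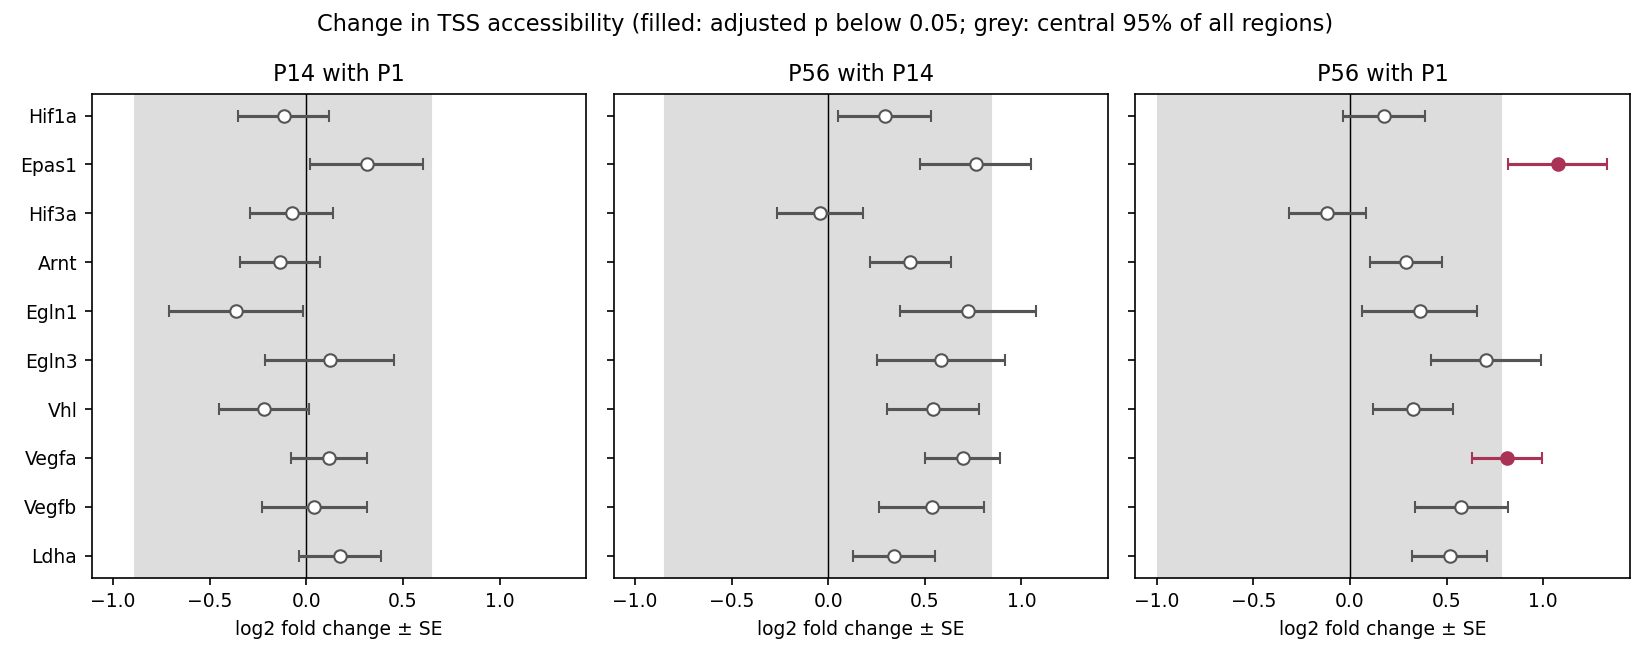
Log2 change of TSS accessibility for each gene in the 3 pairs of stages (horizontal axes; points are edgeR estimates, bars are SE); filled points passed an adjusted p of 0.05, and the grey band holds the central 95% of all TSS regions. Vegfa and Epas1 at P56 against P1 are the only filled points, and the P14 against P1 values sit on both sides of 0.

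The timing was examined by setting P14 against P1 and P56 against P14. These comparisons share libraries with each other and with P56 against P1, so their values are not independent. At P14 against P1 none of the 10 genes passed the edgeR test, where 0.0119% of all regions did. Log2 changes ran from -0.36 for Egln1 to 0.31 for Epas1, 5 were above 0 and 5 below, and their median was -0.02, against 16876 above 0 of all 33747 regions and 63.1% of the well-covered ones. No gene had an unadjusted p below 0.05, where 8.59% of all regions did. Vhl was the only gene of the 10 whose stages did not overlap, its P14 libraries being lower; none of the 10 was higher with no overlap. Over all regions, 7.87% were lower and 9.02% higher with no overlap.

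At P56 against P14 the log2 change was above 0 for 9 of the 10 genes, with a median of 0.54, against 48.4% of all regions (median -0.02) and 63.3% of the well-covered ones (median 0.11). None passed the edgeR test, where 0.00296% of all regions did, and 4 of the 10 had an unadjusted p below 0.05 (10.1% of all regions). Epas1 had the largest change, 0.76 ± 0.29 (SE, edgeR adjusted p = 0.376). Egln1 followed with 0.72 ± 0.35 (adjusted p = 0.494) and Vegfa with 0.70 ± 0.20 (adjusted p = 0.287). Epas1, Arnt and Vhl did not overlap between the stages, where 7.0% of all regions were higher at P56 without overlap. Vegfa passed here without P56 replicate 1 (0.89, edgeR adjusted p = 0.0260) and in no other alternative. By mean CPM the stages ran in the order P1, P14, P56 for Epas1, Egln3, Vegfa, Vegfb and Ldha and with P14 lowest for Hif1a, Arnt, Egln1 and Vhl. For Hif3a P1 was the highest and P56 the lowest. None of the steps between P1 and P14 passed the edgeR test for any of the 10 genes.

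**Figure D3:**
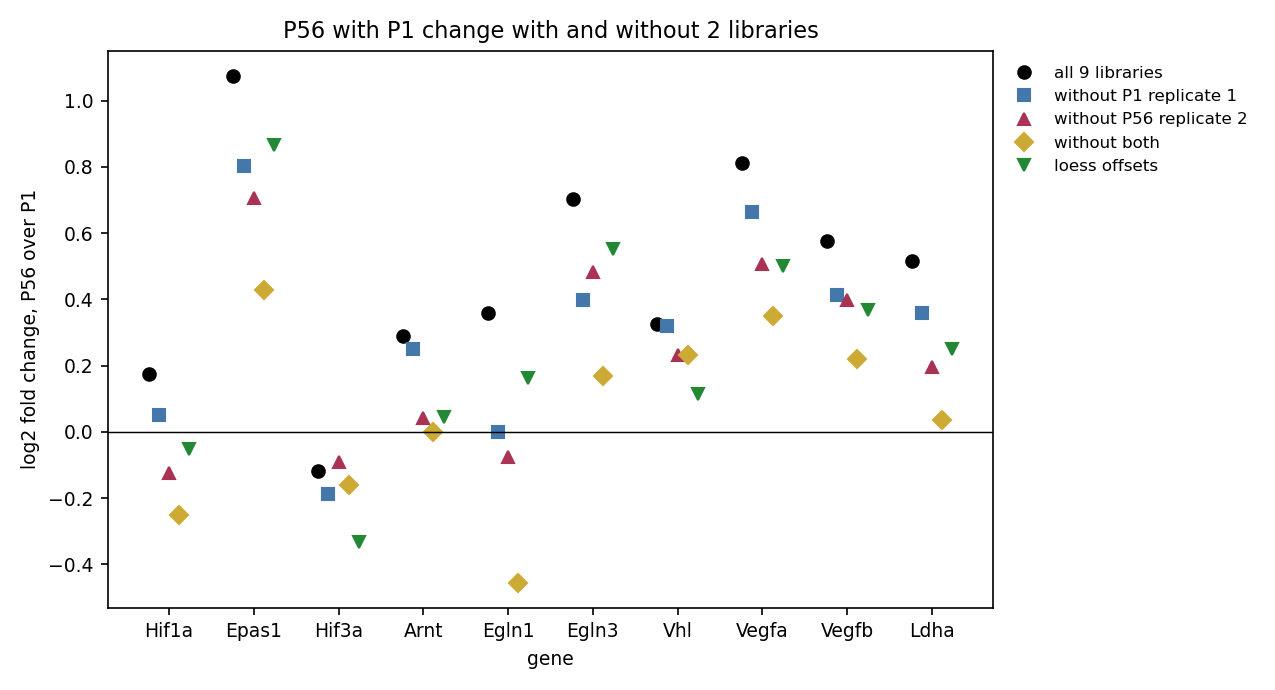
Log2 change of P56 over P1 for each gene (vertical axis) with all 9 libraries, without P1 replicate 1, without P56 replicate 2, without both, and with loess offsets (point shapes). Vegfa and Epas1 stay above 0 throughout at smaller values, and Egln3, Vhl, Vegfb and Ldha also stay above 0. Egln1 goes to -0.45 without both libraries, and Hif3a is below 0 in each.

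The wider pathway was described from lists of genes set beside the 10. For these lists, the shares of all regions at P56 against P1 were 1.72% rising and 49.3% above 0. Of the well-covered regions, a coverage that some listed genes lack, 5.02% rose and 76.7% were above 0 (median 0.25). Of 17 other oxygen sensing and HIF pathway genes tested, 1 rose at P56 against P1 and none fell, 15 had log2 changes above 0, and the median was 0.36. The riser was Usp20, a deubiquitinase reported to stabilise HIF-1α, with 172, 195 and 167 CPM at P56 and 105, 124 and 98.2 CPM at P1. Its stages were well apart, with a log2 change of 0.71 ± 0.15 (SE, edgeR adjusted p = 0.0114), and it kept 0.61 (0.0123) without P1 replicate 1 and P56 replicate 2, though 0.41 (0.155) with loess offsets. The list's median without those libraries was 0.0047.

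Of 49 HIF target genes, 1 rose, none fell and 39 (79.6%) were above 0, with a median of 0.33. Of all regions 1.72% rose, and of the well-covered ones 5.02% rose and 76.7% were above 0 (median 0.25). The HIF target gene that rose was Tpi1, the glycolytic enzyme triosephosphate isomerase. It had 81.9, 120 and 82.7 CPM at P56 and 38.2, 60.3 and 69.8 CPM at P1. The P56 libraries were all higher (log2 change 0.78 ± 0.21, edgeR adjusted p = 0.0396), but without P1 replicate 1 and P56 replicate 2 the change was 0.32 (0.386). Of 12 lactate and pyruvate genes, 1 rose, none fell and 9 were above 0, with a median of 0.49. The riser was Pdk2, a kinase that inhibits pyruvate dehydrogenase, with 130, 223 and 145 CPM at P56 and 76.9, 89.8 and 104 CPM at P1. Its log2 change was 0.89 ± 0.18 (SE, edgeR adjusted p = 0.00978), with no overlap, and 0.47 (0.0844) without the 2 libraries. Over the 19 alternatives, HIF target genes called higher numbered 0 to 8, with 0 in 13, such as the DESeq2 Wald test, library size scaling and loess offsets, 4 with limma-voom, 4 without P1 replicate 3, 7 without P56 replicate 1 and 8 with the replicate block. The 13 include leaving out any of the other 7 libraries. Those of lactate and pyruvate genes numbered 0 to 4, with 0 in 2, and those of the other oxygen sensing and HIF pathway genes 0 to 2, with 0 in 1. Without the 2 libraries the median of HIF targets was 0.07 and that of lactate and pyruvate genes -0.08. The genes of these 2 lists that then passed, named after their values were seen, were Ldhd, a D-lactate dehydrogenase (0.75, edgeR adjusted p = 0.0193), Pdk4, a pyruvate dehydrogenase kinase (-1.21, 0.000705), and Bhlhe40, a transcriptional repressor (-1.12, 0.0127). With all libraries their log2 changes were 0.67, -0.38 and -0.33.

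The list of other Vegf ligands and receptors, which also holds Angpt2, an angiopoietin that binds Tek, was mixed. Log2 changes were above 0 for 5 and below 0 for 3, Angpt2 among the 3. None of 8 tested passed the edgeR test at P56 against P1, at an unadjusted p below 0.05 there was 1, and the median was 0.11. That was Vegfd, a ligand of the lymphatic receptor, with 4.41, 6.77 and 5.83 CPM at P56 and 14.8, 11.7 and 10.5 CPM at P1. Its P56 libraries were all lower (log2 change -1.11 ± 0.35, edgeR adjusted p = 0.0751). Its counts were low, at 5, 9 and 5 in the P56 libraries and 13.0 on average over the 9 libraries. With library size scaling, which moved the median of all regions to -0.14, it passed (-1.25, edgeR adjusted p = 0.0466). Pgf, a ligand of Flt1, had 0.35 (edgeR adjusted p = 0.409). Of the 8, 7 had log2 changes above 0 at P14 against P1, with a median of 0.32 (0.39 for the 7 without Angpt2). Of all 33747 regions, 16876 were above 0 there. At P56 against P14 all 8 had log2 changes below 0, with a median of -0.24 (-0.28 for the 7 without Angpt2). Both comparisons use the P14 libraries, the shallowest, so their values are not independent. At P56 against P14, 48.4% of all regions and 9 of the 10 hypoxia response and Vegf genes were above 0. In that comparison 10 of 10 cardiomyocyte markers were above 0 (median 0.79), and 4 of 10 endothelial markers (median -0.25). Kdr, a Vegf receptor, is in both the Vegf and the endothelial list. The difference between the lists, and the part of cell makeup in it, was not tested.

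**Figure D4:**
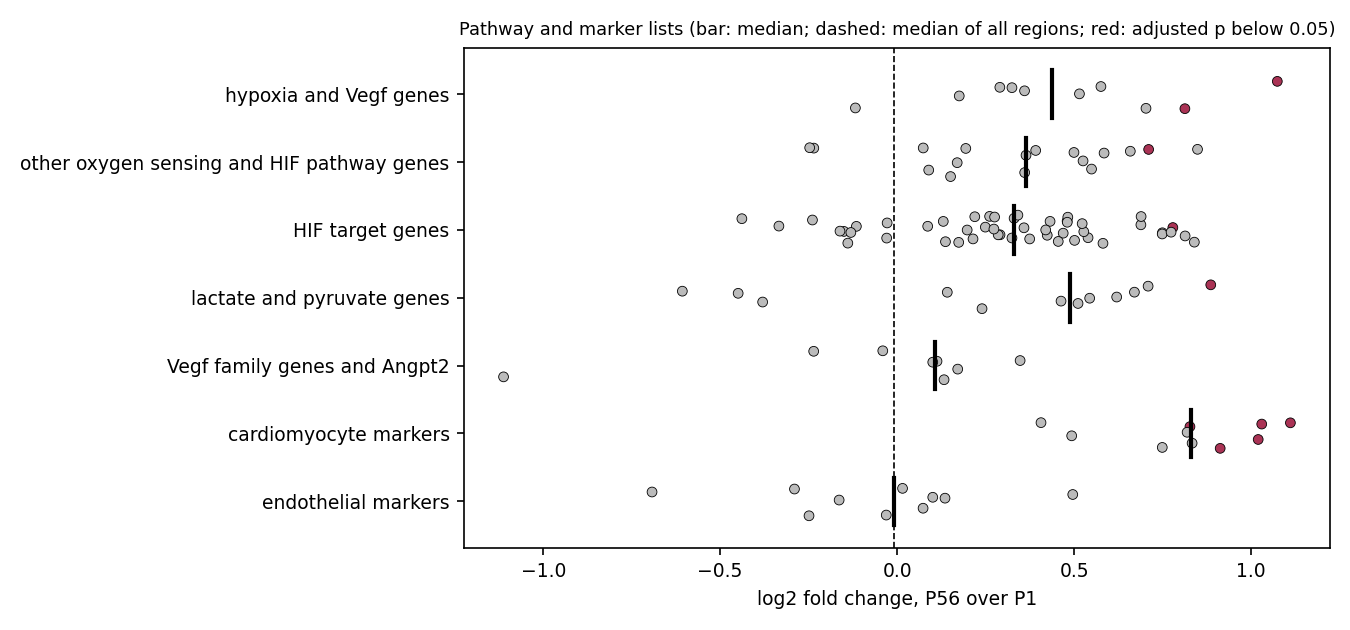
Log2 change of P56 over P1 (horizontal axis) for each gene of the hypoxia and Vegf genes, 4 related lists and the cardiomyocyte and endothelial markers; bars are list medians, the dashed line is the median of all TSS regions, and red points passed an adjusted p of 0.05. The medians are 0.44 for the 10 genes, 0.11 for the Vegf genes with Angpt2, 0.83 for cardiomyocyte markers and -0.01 for endothelial markers.

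Cell type markers were read from the same fits, and their lists differed in direction. All 10 cardiomyocyte markers had log2 changes above 0 at P56 against P1, 5 rose (Tnni3, Myl2, Tnnt2, Myh6 and, named after its values were seen, Ttn), and their median was 0.83. Their summed level was 927 to 2325 CPM at P56 and 493 to 1067 CPM at P1, highest in P56 replicate 2 and lowest in P1 replicate 1, and without those 2 libraries the median was 0.08 and none passed. Of the other markers, the endothelial Egfl7 (0.62) and the erythroid Slc4a1 (0.90) passed without them. The endothelial markers, which label the cells where Epas1 and the Vegf receptors are best known, summed to 447 to 538 CPM at P56 and 409 to 489 CPM at P1. Of these, 5 of 10 were above 0, and none passed, Egfl7 (0.50) and Tek (-0.69) having the smallest p. No fibroblast, leukocyte or erythroid marker passed. The 2 with the smallest p were Col1a1 (0.50) and Col3a1 (-0.74) for fibroblasts, and Cd68 (0.83) and Ptprc (-0.41) for leukocytes. The erythroid marker with the smallest p was Slc4a1 (0.58). Medians were -0.31 for fibroblast, 0.22 for smooth muscle and pericyte (1 of 10 rose, Smtn), 0.05 for leukocyte and -0.01 for erythroid markers. No marker in the table was at 0 in any library. In pooled nuclei, more nuclei of a type and more open chromatin per nucleus cannot be told apart, and the part of cell makeup in the results was not tested.

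Peaks gave a second readout of the same loci. Within 5 kb of the gene spans lay 14 of the 25915 deposited peaks, at 9 of the 10 genes, and 7 of them covered a listed start. At P56 against P1, 12 of the 14 had log2 changes above 0 (52.4% of all peaks), none passed the edgeR test (0.444% of all peaks did), 2 had an unadjusted p below 0.05 (16.0% of all peaks), and 2 were higher with no overlap (8.54% of all peaks). At P14 against P1, 3 of 14 were above 0 (49.8% of all peaks) and none passed (0.00773% of all peaks did), and none had an unadjusted p below 0.05 (6.04% of all peaks) or stages without overlap (7.39% of all peaks were higher and 5.64% lower without overlap). At P56 against P14, 13 were above 0 (51.2% of all peaks), none passed (0.00773% of all peaks did), 2 had an unadjusted p below 0.05 (14.7% of all peaks), and 4 were higher with no overlap (9.12% of all peaks).

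The smallest p at P56 against P1 belonged to a peak inside Egln1 (chromosome 8, 124936804 to 124938397), 10857 to 12450 bp past the start. It had 36.8, 74.5 and 56.8 CPM at P56 and 23.0, 30.0 and 40.1 CPM at P1, which overlapped (log2 change 0.86 ± 0.30, edgeR adjusted p = 0.149). Its P14 libraries (19.3, 31.1 and 31.6 CPM) all lay below P56, with a log2 change of 1.11 ± 0.36 at P56 against P14 (edgeR adjusted p = 0.213). The Egln1 peak over the start had a log2 change of 0.10 at P56 against P1 (edgeR adjusted p = 0.869).

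The Epas1 peak (chromosome 17, 86752397 to 86756425), which covers the low-coordinate end of the gene, had 124, 182 and 115 CPM at P56 and 78.2, 102 and 104 CPM at P1. The P56 libraries were all higher, as at the TSS, with a log2 change of 0.58 ± 0.25 (SE, edgeR adjusted p = 0.230). A peak 797 bp beyond Vhl (chromosome 6, 113632431 to 113633646) had 32.8, 28.3 and 35.1 CPM at P56 and 21.4, 18.9 and 19.7 CPM at P1, also with no overlap (0.66 ± 0.34, edgeR adjusted p = 0.323). For the remaining genes the peak with the smallest p had log2 changes of 0.47 at Ldha, 0.47 at Egln3, 0.44 near Vegfb, 0.23 at Arnt, 0.15 at Hif1a and -0.60 at Hif3a, with edgeR adjusted p from 0.359 to 0.829. The Vegfb one overlaps Fkbp2.

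No listed peak lay within 5 kb of Vegfa, although its TSS region rose. The nearest (chromosome 17, 46051838 to 46053999), named after its values were seen, was 19461 bp away and had 56.5, 44.3 and 41.8 CPM at P56 and 77.3, 44.4 and 32.7 CPM at P1. The stages overlapped, with a log2 change of -0.12 ± 0.30 (SE, edgeR adjusted p = 0.864).

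**Figure D5:**
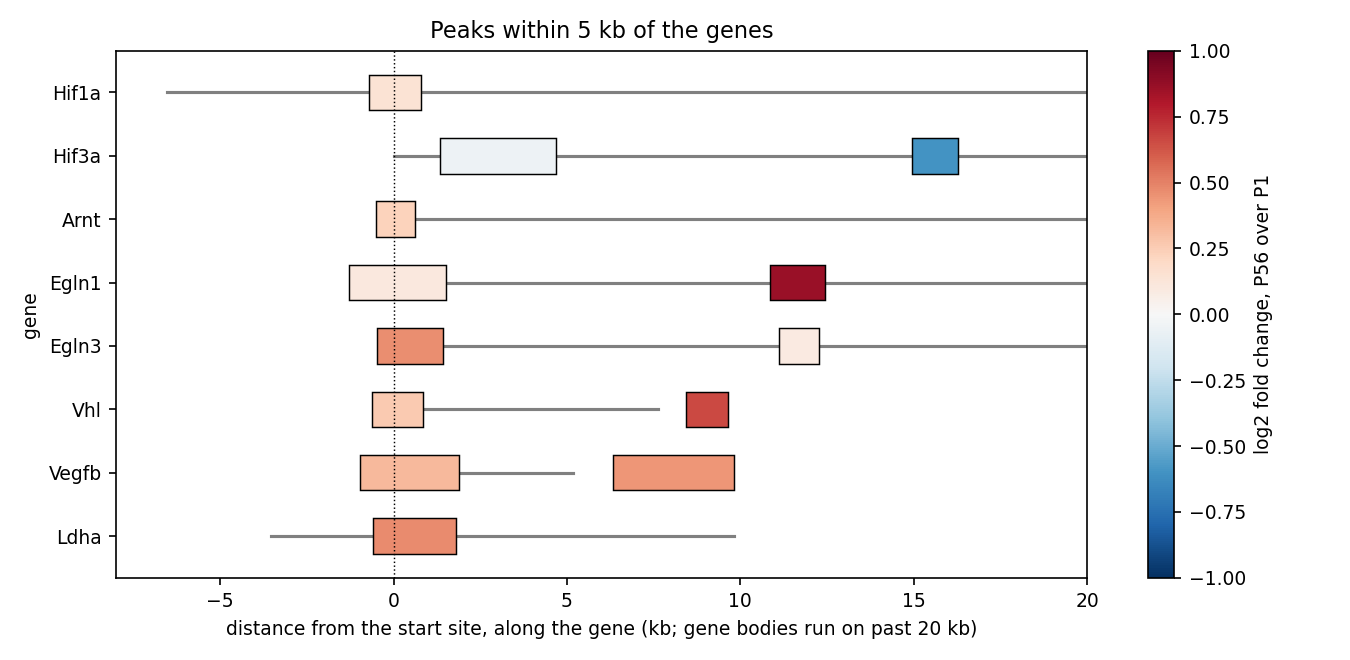
Peaks within 5 kb of the genes that have a listed start, placed by distance from the start along the gene in kb (horizontal axis; grey lines are gene bodies, boxes are peaks); colour gives the log2 change of P56 over P1. The darkest red box is the internal Egln1 peak at 0.86 and the blue box the internal Hif3a peak at -0.60.

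The genes whose TSS pattern was most like that of Vegfa over the 9 libraries, among 6331 regions with a mean count of at least 50, were Dhx8, Ung and Lima1, with Pearson correlations of log2 CPM of 0.99 each. For Epas1 they were Tpi1, Hdgf and Bag6, also at 0.99. Their log2 changes at P56 against P1 were 0.81, 0.83 and 0.59 for the Vegfa set and 0.78, 0.48 and 0.49 for the Epas1 set. Among the 10 genes themselves, the closest pair was Epas1 with Ldha (0.93), and Vegfa with Epas1 stood at 0.88. All of these correlations share the libraries' differences in depth and signal over background.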

How the data were processed

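ATAC-seq libraries of cardiomyocyte nuclei from P1, P14 and P56 hearts, 3 per stage, were grouped by the stage in their labels. What the authors deposited were raw counts of reads, in one table per TSS region (width not stated) and in another per peak. The submitters' processing notes name, in no stated order, featureCounts 1.4.2, MACS 1.4.0, BWA 0.7.10, bedtools 2.26, bcl2fastq 2.17.1.14 and SAMtools 1.3.1, and the build GRCm38; read filters and Tn5 shifts are not given in the sources used here. Every deposited region had a mean of at least 10 counts. Labels and the series text call the libraries biological replicates.

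The 2 tables were analysed separately in R 4.3.3 with edgeR 4.0.16. After edgeR's expression filter, 33747 TSS regions and 25885 peaks were tested, with TMM scaling, a coefficient for each stage and all 9 libraries in the fit, by the two-sided quasi-likelihood F test, adjusted by Benjamini-Hochberg over all regions of a comparison, with a threshold of 0.05. All 10 genes passed the filter. SE is the log2 change divided by the root of F. Fits were tested on simulated counts. Library shares were compared by an exact permutation test. Positions came from RefSeq GRCm38.p6.

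The genes, lists, naming rules and tests were chosen with earlier results of these data known. From each other list, up to 4 genes past the threshold were to be named by smallest adjusted p, or else the 2 with the smallest p at P56 against P1; 1 gene that this rule names is not reported here. For each gene past the threshold, the 3 annotated genes of most similar pattern were named, and for each gene the peak with the smallest p at P56 against P1. Siah1a, Fam162a, Nrp1, Angpt1, Hbb-bs, Hbb-bt and Ahsp of the lists were not analysed here. Alternatives were DESeq2 1.42.0 size factors and Wald test, library size scaling, no filter or a mean count of at least 20, limma-voom (limma 3.58.1), 2 stages alone, loess offsets (span 0.3), the replicate number as a block, a threshold of 0.01, and leaving out libraries. Their use on the other lists was chosen after seeing the data.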

Additional observations from a re-analysis of the deposited data

How the results depend on the processing

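Of the 10 genes, 2 passed at P56 against P1; the count was 0 with a mean count of at least 20, with 2 stages alone, with loess offsets, at an adjusted p below 0.01 and with P1 replicate 1 and P56 replicate 2 both left out, and 0 to 4 when one library was left out. It stayed at 2 with DESeq2 size factors, library size scaling, no filter, the DESeq2 Wald test, limma-voom and the replicate block. Over all 3 stages, where 1 passed, the count was 0 with DESeq2 size factors, a mean count of at least 20, loess offsets, an adjusted p below 0.01 and without both libraries, 2 with the replicate block, and 0 to 2 when one library was left out. At P56 against P14 the count was 0, and 0 to 1 when one library was left out; at P14 against P1 it was 0 in every alternative run. No peak at the genes passed, and 0 to 1 did when one library was left out, at P56 against P1 and at P56 against P14.

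The sign of some log2 changes reversed, all of them for values that had not passed. With loess offsets it was -0.050 for Hif1a at P56 against P1, and at P14 against P1 -0.074 for Vegfa and -0.026 for Vegfb. At P14 against P1, Vegfb was -0.026 with library size scaling and -0.045 with a mean count of at least 20. Leaving out 1 library, or the P1 replicate 1 and P56 replicate 2 libraries together, gave ranges that crossed 0. At P56 against P1 these were -0.25 to 0.31 for Hif1a, -0.0014 to 0.39 for Arnt and -0.45 to 0.73 for Egln1. At P14 against P1 they were -0.25 to 0.030 for Hif1a, -0.20 to 0.085 for Hif3a, -0.75 to 0.018 for Egln1, -0.21 to 0.30 for Egln3, -0.041 to 0.26 for Vegfa and -0.14 to 0.19 for Vegfb. At P56 against P14 they were -0.0052 to 0.43 for Hif1a and -0.20 to 0.085 for Hif3a. The cause was not tested.

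Over all TSS regions, 853 passed at P56 against P1 and 147 to 1523 did when one library was left out, with 270 at a mean count of at least 20, 247 by the DESeq2 Wald test, 185 with 2 stages alone, 232 with loess offsets and 1982 with the replicate block. Library size scaling gave 319 higher and 778 lower regions, against 581 and 272, and moved the median of all regions to -0.14; Vegfa and Epas1 still rose by 0.67 and 0.93. Same-numbered libraries had deviations that correlated at -0.07 to 0.22 in the TSS table and at -0.18 to 0.45 in the peak table. Different-numbered libraries of different stages correlated at -0.27 to 0.25 and at -0.50 to 0.49. The same-numbered values were not all above 0.1 in either table, so the numbers were not taken to pair the libraries. The replicate block took the peaks passing at P56 against P1 from 115 to 684. Whether same-numbered libraries share a batch was not tested. P14, with the fewest counts, limits what its comparisons can show.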
